A study of Mus musculus with 6 samples.

Results

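The 45 genes described here encode the core machinery of DNA replication, and they were looked up by gene symbol in a table of fragment counts for 43309 genes. All 45 were found. They comprise the 6 subunits of the MCM2-7 helicase, the 6 subunits of the origin recognition complex (ORC), 3 licensing genes, 8 genes of origin firing, the 4 subunits of DNA polymerase alpha-primase, 5 subunits of DNA polymerases delta and epsilon, PCNA with the 5 subunits of its loader RFC, the 3 subunits of RPA, 2 genes of Okazaki fragment maturation and the 2 ribonucleotide reductase genes Rrm1 and Rrm2. RNA came from mouse embryonic stem cells (mESCs), which are pluripotent and can be grown as lines, and was sequenced with the TruSeq Stranded mRNA kit. The controls came from 3 clones labelled Zbtb24 wild-type (2lox/+), which carry 1 floxed allele, and the other group from 3 clones labelled Zbtb24 knockout (1lox/1lox), where both alleles are labelled as recombined. All lines are of the strain J1 (129SV) and were kept in medium with serum on gelatin, with no feeder layer, and every library was made from 2 µg of total RNA with 8 PCR cycles. The agent that recombined the floxed allele and the passage number are not given in the sources used here, and each library represents 1 clone.

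DNA replication starts at origins that ORC marks. With CDC6 and CDT1, ORC loads the MCM2-7 ring on DNA in G1 phase, which is called licensing, and geminin holds CDT1 back afterwards. In S phase the kinase CDC7 with DBF4 fires the origin, CDC45 and GINS join the MCM ring to form the active CMG helicase, and the polymerases, the sliding clamp PCNA, the clamp loader RFC and the single-strand binding protein RPA build the fork. Many of these genes are known targets of E2F transcription factors, whose sites lie close to the start of transcription. Mouse ES cells are known for short gap phases and for large amounts of licensing proteins.

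Promoter sequences were available for 37 of the 45 genes in RefSeq (GRCm38.p6, from 250 bases before to 50 after the start). They were searched for the E2F-type words TTTGGCGC, TTTGCCGC, TTTCGCGC and TTTCCCGC on both strands, where matches of opposite strands can overlap. A match was present for 15 of the 37 genes (40.5%), against 342 of 6078 genes with 500 or more counts on average (5.63%) and 2.60% of all 27025 genes in the table. The 15 genes were Mcm3, Mcm5, Mcm6, Mcm7, Orc1, Orc3, Cdc6, Cdt1, Gins3, Pola1, Pold1, Pold3, Pole2, Rfc3 and Lig1. The table has no promoter for Mcm4, Gmnn, Gins1, Gins2, Gins4, Prim2, Pole and Rfc2. The 250 bases before the start are printed for 4 genes with a match there, the helicase genes Mcm6, Mcm5 and Mcm7 and the ORC gene Orc3, and for Rfc4, the clamp loader gene with the largest change, in which no word was matched. They lie at chr1:128359706-128359955 (minus strand) for Mcm6, chr8:75109259-75109508 (plus strand) for Mcm5, chr5:138171884-138172133 (minus strand) for Mcm7, chr4:34614943-34615192 (minus strand) for Orc3 and chr16:23127731-23127980 (minus strand) for Rfc4. Each is written 5′ to 3′ towards the gene, and capitals mark the matched words.
Mcm6: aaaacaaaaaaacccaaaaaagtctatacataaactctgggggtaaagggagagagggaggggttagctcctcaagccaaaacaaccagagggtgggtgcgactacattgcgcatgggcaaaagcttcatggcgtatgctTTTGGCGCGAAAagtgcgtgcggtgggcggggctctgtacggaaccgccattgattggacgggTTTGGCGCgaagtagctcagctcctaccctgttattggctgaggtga
Mcm5: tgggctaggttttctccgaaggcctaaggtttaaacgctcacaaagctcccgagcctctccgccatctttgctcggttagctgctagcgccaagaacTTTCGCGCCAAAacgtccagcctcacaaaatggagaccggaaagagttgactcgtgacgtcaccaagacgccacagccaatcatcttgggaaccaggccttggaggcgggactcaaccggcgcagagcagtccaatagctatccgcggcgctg
Mcm7: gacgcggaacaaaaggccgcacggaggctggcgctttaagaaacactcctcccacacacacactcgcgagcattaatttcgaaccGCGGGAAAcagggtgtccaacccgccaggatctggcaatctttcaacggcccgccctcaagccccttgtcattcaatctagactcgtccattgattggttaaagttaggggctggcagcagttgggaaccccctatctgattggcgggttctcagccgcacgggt
Orc3: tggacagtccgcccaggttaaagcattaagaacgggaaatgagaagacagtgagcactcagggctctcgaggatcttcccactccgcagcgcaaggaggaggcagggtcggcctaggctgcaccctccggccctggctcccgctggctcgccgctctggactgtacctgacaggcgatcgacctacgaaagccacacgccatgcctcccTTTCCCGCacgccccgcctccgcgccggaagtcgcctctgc
Rfc4: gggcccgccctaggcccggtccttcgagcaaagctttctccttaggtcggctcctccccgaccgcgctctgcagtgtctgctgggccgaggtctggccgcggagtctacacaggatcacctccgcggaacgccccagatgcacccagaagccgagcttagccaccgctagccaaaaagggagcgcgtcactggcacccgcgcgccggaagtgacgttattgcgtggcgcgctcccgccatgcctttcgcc

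In Mcm6 the words began 110, 106 and 47 bases before the start, and those at 110 and 106 overlapped on opposite strands. In Mcm5 a pair of overlapping words began 153 and 149 bases before the start. In Mcm7, which has another listed start with no match, a word began 165 bases before the start, and a further one lay after it. In Mcm3 both matches lay after the start, beginning at its bases 20 and 39. These are matches of letters and show no binding.

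Zbtb24, the gene targeted in these lines, codes for a protein with zinc fingers and a BTB domain. It had 510, 512 and 489 counts in the control clones and 888, 925 and 1039 in the clones labelled knockout (log2 fold change 0.99 with a standard error, SE, of 0.05). Its level was higher in the group labelled knockout. A count per gene does not show which exons were covered, so the label can be neither borne out nor contradicted by it. The groups are therefore called by their labels throughout, and every direction below is that of the libraries labelled knockout against the control. Library totals were 26987179 to 27754105 counts in the control group and 25042261 to 28838924 in the group labelled knockout. Of 12 mESC markers 9 were higher and 3 lower in the clones labelled knockout, and their summed level was 6050 to 6129 CPM (counts scaled to the library size) in the control group and 7218 to 7292 in the group labelled knockout. The 9 fibroblast markers summed to 61.1 to 63.5 and 13.6 to 14.3 CPM, with Lum at 0 in every library, the 5 primitive endoderm markers to 4.66 to 4.84 and 4.29 to 5.77 CPM, the 4 trophectoderm markers to 12.8 to 13.6 and 6.62 to 8.37 CPM, and the 4 primitive streak markers to 2.29 to 3.10 and 2.68 to 3.44 CPM. In these lists, 6 of 8 tested fibroblast markers were lower and 0 higher, and the higher and lower calls numbered 1 and 3 of 5 for primitive endoderm, 1 and 2 of 4 for trophectoderm and 1 and 0 of 3 tested for primitive streak. The part of these cells in the results below was not tested.

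All 45 genes were well counted, with means from 704 to 20616 counts per library, and all entered the test, which took the 16823 genes that reached 10 counts in 1 library or more. By edgeR's quasi-likelihood test with a Benjamini-Hochberg false discovery rate (FDR) of at most 0.05, 36 of the 45 passed, 31 of them higher and 5 lower in the clones labelled knockout. Most genes of this comparison passed too. The test called 69.5% of all genes tested, 34.4% higher and 35.2% lower. Among the 7619 genes with 500 or more counts on average, which is the closer background for these genes, it called 78.4%, 44.5% higher and 33.9% lower. The 36 of 45 called are thus near this background, while the higher calls made up 68.9% of the replication genes and the lower calls 11.1%. The median log2 fold change was 0.14 over the 45 genes, 0.04 over the well-counted genes and 0.00 over all genes tested. In bulk RNA, a larger share of cells in S phase and more RNA per cell cannot be told apart.

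The changes were small. The median size of the log2 fold change was 0.15 over the replication genes and 0.20 over the well-counted genes. A log2 fold change of 0.5 or more in size was seen in 5 of the 45 genes (11.1%), against 18.6% of the well-counted genes. Of the 36 genes called, 22 changed by less than 0.25 on the log2 scale, with SEs of 0.02 to 0.04. When a change of over 1.2-fold was required (edgeR's glmTreat), 9 genes were higher and 0 lower, and these were Mcm6, Prim2, Mcm3, Rfc4, Orc2, Orc3, Mcm4, Rpa3 and Lig1. That test called 18.1% of all genes tested higher and 22.6% lower. The 9 of 45 called higher are thus near that background. The libraries of the groups did not overlap in normalised level for 36 genes, the same ones that passed the FDR, and for 71.5% of all genes tested.

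**Figure D1:**
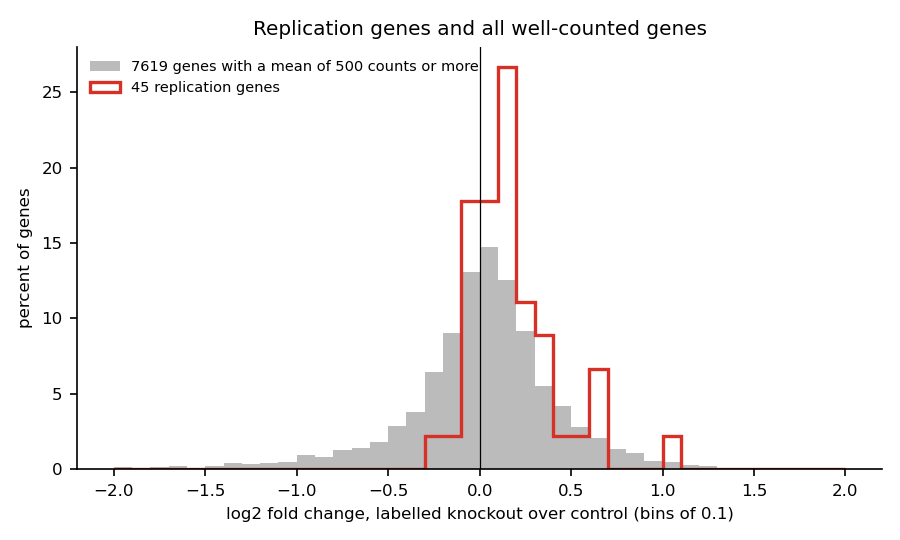
Log2 fold change (x axis, libraries labelled knockout over control, bins of 0.1) against percent of genes (y axis) for the 45 replication genes (red outline) and 7619 genes with 500 or more counts on average (grey, 57 of them outside the axis). The replication genes lie in a narrow band with a median of 0.14, with Mcm6 alone above 1.

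Together the 45 genes took 0.773% ± 0.0004 of all counted fragments in the control group and 0.888% ± 0.0044 in the group labelled knockout (SD, n = 3 clones each). The control libraries held 0.7727%, 0.7730% and 0.7735%, and those labelled knockout held 0.8834%, 0.8885% and 0.8921%. The MCM2-7 genes alone went from 0.273% ± 0.001 to 0.362% ± 0.002 of the fragments, which is most of the difference in the sum. Among the MCM2-7 fragments, Mcm6 went from 13.1% to 20.0% and Mcm3 from 16.5% to 19.0%, while Mcm2, Mcm4, Mcm5 and Mcm7 took smaller shares. Mcm6 and Mcm3 lie on chromosome 1, where 89.1% of the well-counted genes were called higher. Per kilobase of merged exons, the control level ran from 7.60 ± 0.11 CPM for Prim2 to 174 ± 1.49 for Mcm5, with Pcna (121 ± 2.12), Mcm3 (118 ± 1.17), Rrm2 (97.7 ± 1.52) and Mcm7 (93.3 ± 1.47) next below Mcm5. With the length of the longest transcript, Mcm5 and Pcna again ranked highest in the control group, and Mcm7 and Mcm2 ranked above Mcm3. By that length Gins3 was lowest (10.1 CPM) and Prim2 was at 18.4 CPM, so the lowest gene depends on the length used.

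The position of a gene on the chromosomes went with the change of the replication genes. The median log2 fold change of all genes tested was 0.49 on chromosome 1 (1086 genes), -0.23 on chromosome 8 and 0.14 on chromosome 6, and on each other chromosome it lay between -0.08 and 0.04. On chromosome 1, 89.1% of the well-counted genes were called higher, and the 4 replication genes there, Mcm6, Mcm3, Prim2 and Orc2, all were, with a median of 0.67. Those 4 and Rfc4 are the 5 genes with the largest changes. The well-counted genes of chromosome 1 had a median of 0.57. Of them, 6.55% had a higher value than Mcm6, 34.9% than Prim2, 37.6% than Mcm3 and 56.1% than Orc2. Off chromosomes 1, 6 and 8, 23 of 33 replication genes were called higher and 4 lower, with a median of 0.14. Of the 6371 well-counted genes there, 41.8% were called higher and 34.8% lower, and their median was 0.02. The 6 genes on chromosome 8 had a median of 0.03, with 2 called higher and 1 lower. Among well-counted genes of all chromosomes together, 44.5% were called higher and 33.9% lower. A gene's log2 fold change lay above the median of its 44 to 344 tested neighbours within 10 Mb for 41 of the 45 replication genes, against 56.1% of the well-counted genes. The exceptions were Mcm10, Rfc1, Rrm1 and Rrm2, and the median of the difference from the neighbours was 0.18. What moves the genes of these chromosomes as a whole was not tested.

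**Figure D2:**
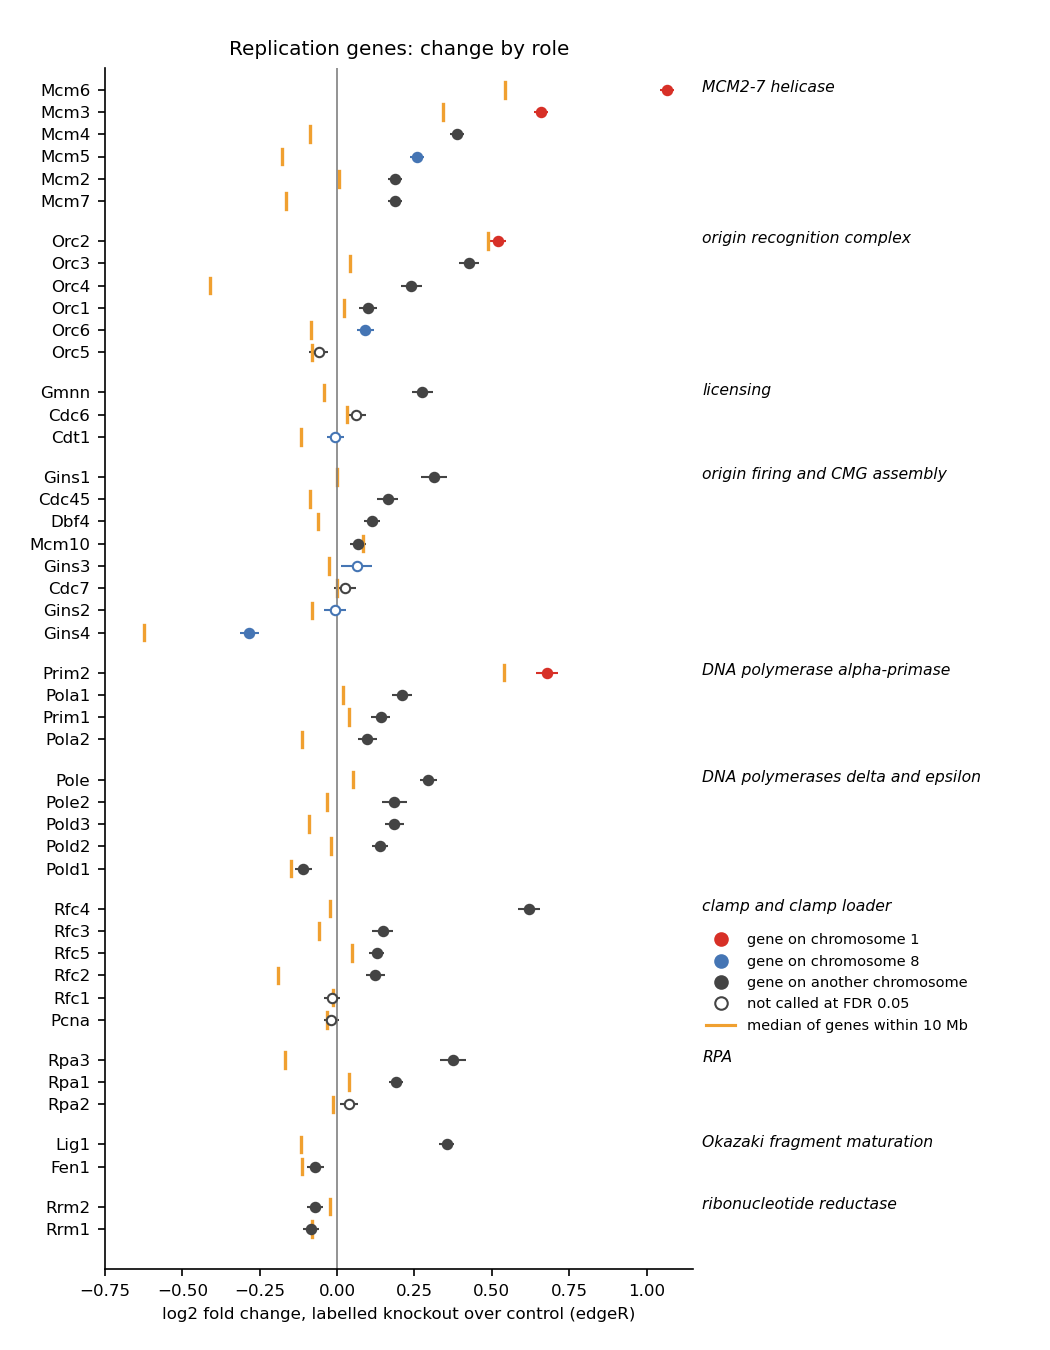
Log2 fold change (x axis, libraries labelled knockout over control) with SE bars for each of the 45 genes, grouped by role (y axis). Filled points passed the FDR, colours mark chromosomes 1 and 8, and orange ticks give the median of the genes within 10 Mb, above which 41 points lie.

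The MCM2-7 genes, which encode the ring that unwinds DNA, were all called higher, and Mcm6 changed most of the 45 genes. Mcm6 (chromosome 1, 128331590 to 128359664, mm10) was at 357, 346 and 351 CPM in the control clones and 738, 730 and 737 CPM in the clones labelled knockout. The groups lay far apart with little spread within either, and the log2 fold change was 1.07 ± 0.02 (SE; edgeR, adjusted p = 3.83e-38). The median of its neighbours was 0.54, so the change of Mcm6 exceeded theirs by 0.52. Mcm3, also on chromosome 1, was at 448, 442 and 440 CPM in the control clones and 694, 701 and 707 CPM in the clones labelled knockout, for a log2 fold change of 0.66 ± 0.02, where its neighbours had 0.34. Mcm4, on chromosome 16, was at 307, 318 and 310 CPM against 406, 410 and 407 CPM, a log2 fold change of 0.39 ± 0.02, with neighbours at -0.09. Mcm5, on chromosome 8, rose by 0.26 ± 0.02 on the log2 scale although its neighbours had a median of -0.18. Mcm2 and Mcm7 both rose by 0.19 ± 0.02, the smallest changes of the 6. Mcm2 lies on chromosome 6, where 52.4% of the well-counted genes had a higher value, and its neighbours had a median of 0.007. Mcm7 lies on chromosome 5, where 22.2% had a higher value, and its neighbours had a median of -0.17. Of the exon bases of Mcm7, 3.89% are shared with Mir25 and Mir93 on the same strand.

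The unequal changes altered the makeup of the MCM2-7 transcripts. Of the fragments of the 6 genes, Mcm6 took 13.3%, 12.9% and 13.0% in the control clones and 20.3%, 19.8% and 19.8% in those labelled knockout. Its share therefore went from one of the lower ones to the second highest. Mcm3 went from 16.5% ± 0.20 to 19.0% ± 0.03 (SD, n = 3). The shares of Mcm2 (17.5% ± 0.11 to 14.5% ± 0.09), Mcm5 (26.0% ± 0.17 to 22.6% ± 0.19) and Mcm7 (15.4% ± 0.21 to 12.8% ± 0.15) were smaller in the libraries labelled knockout even though the genes themselves rose. Mcm4 kept nearly the same share, 11.6% ± 0.19 and 11.1% ± 0.11. The ratio of Mcm6 to Mcm2 fragments was 0.750 ± 0.010 in the control group and 1.38 ± 0.03 in the group labelled knockout. The ratio of the highest to the lowest MCM level per kilobase was 2.59 ± 0.03 and 2.72 ± 0.007 with merged exons and 2.56 ± 0.06 and 2.17 ± 0.03 with the longest transcript, so that its direction between the groups depends on the length used.

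The ORC genes, which encode the complex that marks origins, had 5 of 6 called higher. Orc2, on chromosome 1, was at 176, 166 and 170 CPM in the control clones and 240, 243 and 252 CPM in the clones labelled knockout, for a log2 fold change of 0.52 ± 0.03. The median of its neighbours was 0.49, so it stood 0.03 above them, and 56.1% of the well-counted genes on chromosome 1 had a higher value. Orc3, on chromosome 4, was at 72.7, 74.1 and 70.7 CPM against 96.8, 95.5 and 99.9 CPM, a log2 fold change of 0.43 ± 0.03, with neighbours at 0.04. Orc4, on chromosome 2, rose by 0.24 ± 0.03 (65.6 to 70.7 CPM against 78.0 to 84.2 CPM), in a region where the neighbours had a median of -0.41. Orc1, the subunit whose protein varies with the cell cycle, had a log2 fold change of 0.10 ± 0.03 and Orc6 one of 0.09 ± 0.03, both called higher. Orc5 did not pass, at 94.3 to 98.7 CPM against 91.6 to 94.3 CPM (log2 fold change -0.06 ± 0.03, edgeR, adjusted p = 0.077), and 1.46% of its exon bases also belong to another gene on the same strand. Orc2 took 27.2% ± 0.28 of the ORC fragments in the control group and 32.6% ± 0.16 in the group labelled knockout, and Orc5 15.4% ± 0.22 and 12.4% ± 0.23.

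Of the 3 licensing genes, Gmnn alone was called. Gmnn, which encodes the CDT1 inhibitor geminin, was at 67.8, 67.2 and 66.1 CPM in the control clones and 81.0, 77.7 and 84.4 CPM in the clones labelled knockout, for a log2 fold change of 0.28 ± 0.03 (edgeR, adjusted p = 4.61e-10). Cdt1, the loading factor that geminin binds, was at 203, 209 and 212 CPM against 207, 212 and 203 CPM (log2 fold change -0.01 ± 0.03), and its groups overlapped. Cdt1 fragments per Gmnn fragment were 2.99, 3.11 and 3.21 in the control clones and 2.56, 2.72 and 2.40 in those labelled knockout, with no overlap. Cdc6, which loads MCM2-7 with ORC, did not pass (125 to 130 CPM against 129 to 139 CPM, log2 fold change 0.06 ± 0.03, edgeR, adjusted p = 0.056).

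The origin firing genes went both ways. Gins1 was at 37.6, 40.9 and 37.5 CPM in the control clones and 47.8, 49.6 and 46.9 CPM in the clones labelled knockout, for a log2 fold change of 0.31 ± 0.04. Gins4, another subunit of the same 4-part GINS complex, had the largest fall of the 45 genes. It was at 93.1, 91.2 and 91.5 CPM in the control clones and 74.3, 74.5 and 77.6 CPM in the clones labelled knockout, and fell by 0.28 on the log2 scale (SE 0.03, edgeR, adjusted p = 2.96e-11). Gins4 lies on chromosome 8 (23226616 to 23237659, mm10) among 96 tested neighbours with a median of -0.62, and it stood 0.34 above them. Gins2 and Gins3, also on chromosome 8, did not pass, at -0.01 ± 0.04 and 0.06 ± 0.05. Gins4 therefore took 41.5% ± 0.30 of the GINS fragments in the control group and 35.1% ± 0.53 in the group labelled knockout, Gins1 17.5% ± 0.90 and 22.4% ± 0.98, and the GINS sum was 0.0225% ± 0.0002 and 0.0212% ± 0.0005 of all fragments. Cdc45, the partner of GINS in the CMG helicase, had a log2 fold change of 0.16 ± 0.03. Dbf4, the regulatory subunit of the firing kinase, rose by 0.11 ± 0.03, and its catalytic partner Cdc7 did not pass (50.9 to 52.2 CPM against 52.2 to 53.2 CPM, 0.03 ± 0.04). Mcm10, which acts when the helicase is switched on, was called higher at 0.07 ± 0.03, a call lost in 3 of the 6 tests without 1 library (without control replicate 2, control replicate 3 or knockout replicate 2, where the edgeR adjusted p was 0.068, 0.073 and 0.065).

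**Figure D3:**
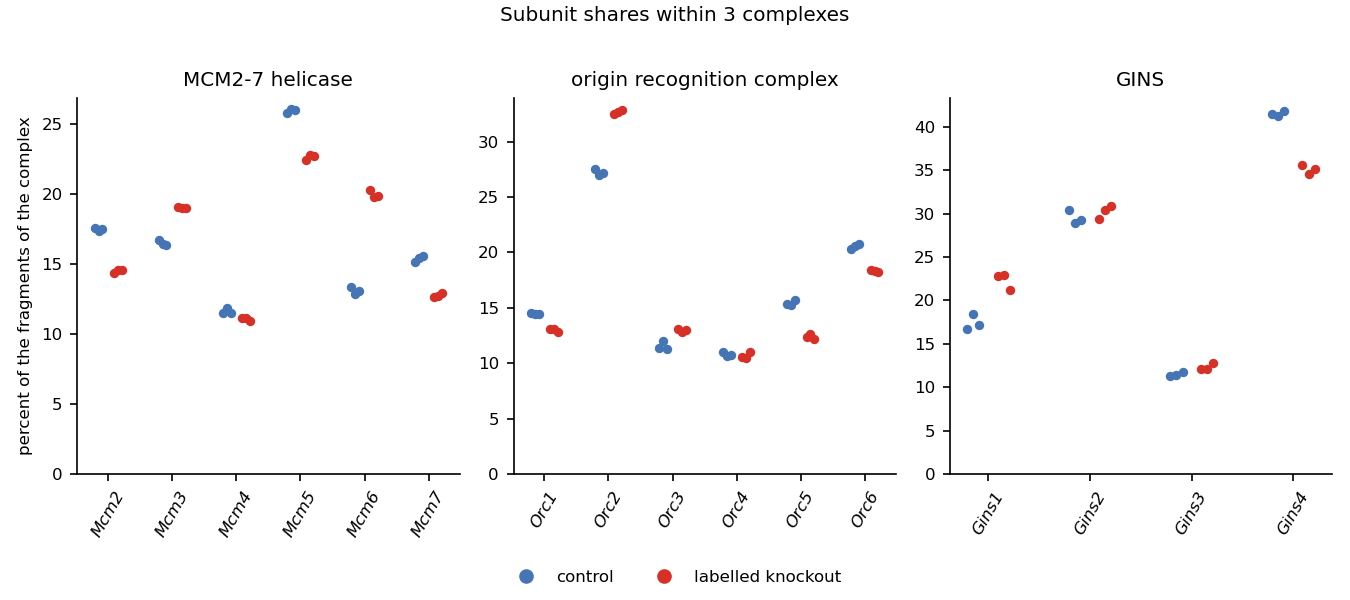
Percent of the fragments of a complex (y axis) taken by each subunit gene (x axis) of MCM2-7, ORC and GINS, with 1 point per library, blue for the 3 control libraries and red for the 3 labelled knockout. Mcm6, Mcm3, Orc2 and Gins1 take larger shares in the libraries labelled knockout, and Gins4, Mcm5 and Orc5 smaller ones.

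All 4 genes of DNA polymerase alpha-primase, which makes the RNA-DNA primers, were called higher. Prim2, the large primase subunit, on chromosome 1, was at 44.96, 44.6 and 45.9 CPM in the control clones and 73.5, 74.3 and 69.2 CPM in the clones labelled knockout, for a log2 fold change of 0.68 ± 0.04, with neighbours at 0.54. Prim1, the catalytic primase subunit on chromosome 10, rose by 0.14 ± 0.03, so that Prim2 fragments per Prim1 fragment were 0.559 ± 0.012 in the control group and 0.811 ± 0.039 in the group labelled knockout. Pola1, the polymerase subunit on the X chromosome, rose by 0.21 ± 0.03, and Pola2 by 0.10 ± 0.03.

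Of DNA polymerases delta and epsilon, which extend the primers, 4 genes were called higher and 1 lower. Pole, the catalytic subunit of polymerase epsilon, was at 162, 158 and 156 CPM in the control clones and 193, 201 and 190 CPM in the clones labelled knockout, for a log2 fold change of 0.29 ± 0.03. Pole2 rose by 0.19 ± 0.04, Pold3 by 0.18 ± 0.03 and Pold2 by 0.14 ± 0.03. Pold1, the catalytic subunit of polymerase delta, went the other way, at 141, 143 and 138 CPM against 129, 131 and 130 CPM, and fell by 0.11 on the log2 scale (SE 0.03, edgeR, adjusted p = 5.03e-04). Its neighbours on chromosome 7 had a median of -0.15.

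Among PCNA and its loader, Rfc4 stood out. Rfc4, a small subunit of RFC on chromosome 16 (23113943 to 23127737, mm10), was at 48.7, 47.2 and 46.9 CPM in the control clones and 75.1, 74.6 and 69.9 CPM in the clones labelled knockout, for a log2 fold change of 0.62 ± 0.04 (edgeR, adjusted p = 9.93e-21). The 187 tested neighbours of Rfc4 had a median of -0.02, and 1.23% of the well-counted genes on chromosome 16 had a higher value. The share of Rfc4 in the RFC fragments went from 7.85% ± 0.06 to 11.0% ± 0.32. Rfc2, Rfc3 and Rfc5 rose by 0.12 to 0.15, and Rfc1, the large subunit, did not pass (-0.02 ± 0.03). Pcna, the clamp itself, did not pass either, at 284, 293 and 294 CPM against 286, 282 and 292 CPM (-0.02 ± 0.02). Fragments that also match a copy of a gene elsewhere were discarded by the authors, and the processed pseudogene Pcna-ps2 on chromosome 19 held 1830, 1786 and 1799 counts in the control clones and 1664, 1518 and 1754 in those labelled knockout, so that the level of Pcna is a lower limit.

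RPA coats single-stranded DNA, and 2 of its 3 genes were called higher. Rpa3, the smallest subunit, on chromosome 6, was at 32.4, 30.8 and 30.9 CPM in the control clones and 40.5, 41.0 and 40.5 CPM in the clones labelled knockout. Its log2 fold change was 0.37 ± 0.04, in a region of 44 tested neighbours with a median of -0.17. All genes tested on chromosome 6 had a median of 0.14, and 37.2% of the well-counted ones had a higher value than Rpa3. Rpa1 rose by 0.19 ± 0.02, and Rpa2 did not pass (0.04 ± 0.03). Lig1, which seals Okazaki fragments, was at 255, 255 and 253 CPM against 327, 327 and 321 CPM, a log2 fold change of 0.35 ± 0.02, and Fen1, which trims their flaps, fell by 0.07 (SE 0.03, edgeR, adjusted p = 0.026), a call lost with DESeq2 (adjusted p = 0.061) and without control replicate 2, control replicate 3 or knockout replicate 1. Both ribonucleotide reductase genes, whose enzyme makes deoxynucleotides, were lower. Rrm1 was at 259, 255 and 254 CPM in the control clones and 240, 236 and 247 CPM in the clones labelled knockout, and fell by 0.08 (SE 0.03). Rrm2 was at 266, 274 and 272 CPM against 252, 257 and 264 CPM, and fell by 0.07 (SE 0.03), a call lost without control replicate 2 or knockout replicate 1. The fragment ratio of Rrm1 to Rrm2 was 0.945 ± 0.024 and 0.936 ± 0.018, within the spread of the clones.

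**Figure D4:**
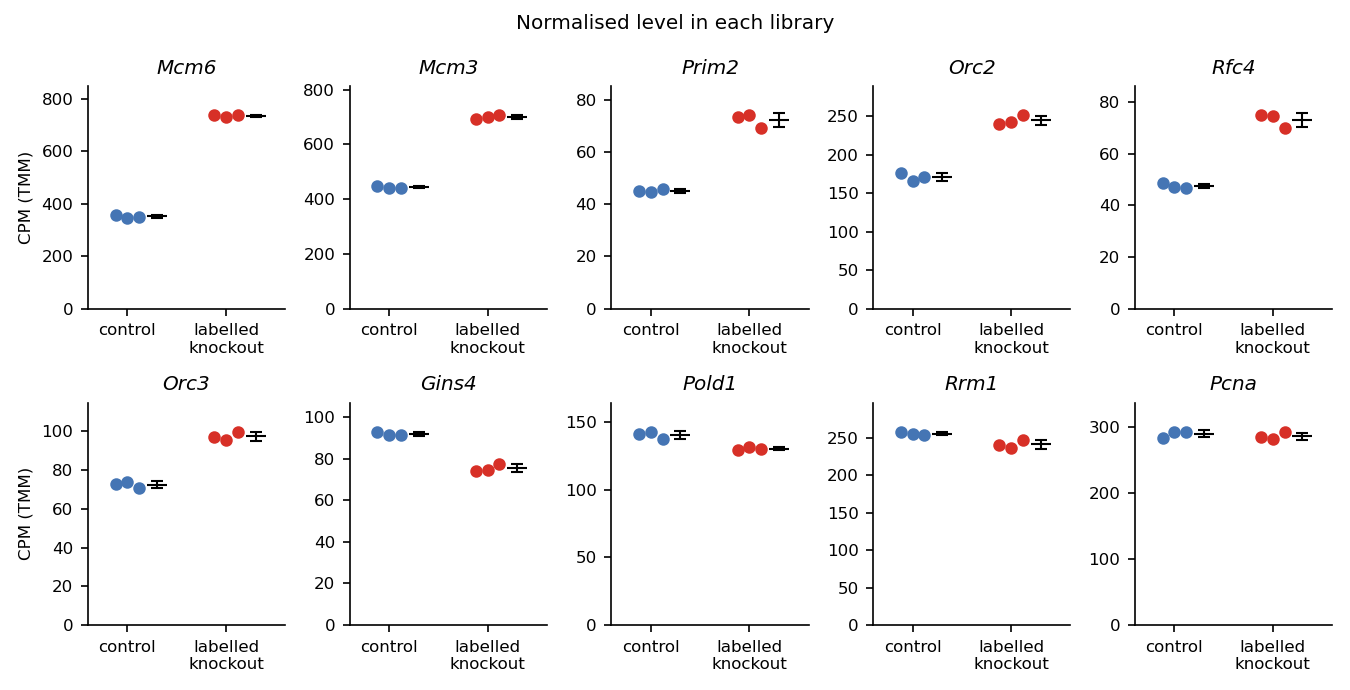
Normalised level in CPM (y axes, from 0) of 10 replication genes in the 3 control libraries (blue) and the 3 labelled knockout (red), with the mean and SD in black. Mcm6, Mcm3, Prim2, Orc2, Rfc4 and Orc3 are higher and Gins4, Pold1 and Rrm1 lower in the libraries labelled knockout, with no overlap, while the points of Pcna overlap.

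Genes called higher and lower were found both with and without a promoter match. Of the 15 genes with a match, 11 were called higher and 1 (Pold1) lower, with a median log2 fold change of 0.19, and of the 22 genes whose promoters held none, 14 were called higher and 3 lower, with a median of 0.11. Both sets spanned large and small changes, from -0.11 to 1.07 with a match and from -0.08 to 0.62 without.

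Genes around the replication machinery were taken from 5 further lists, whose counts are to be read against the 44.5% of well-counted genes called higher and the 33.9% called lower. Of 40 other replication genes 21 were called higher (52.5%) and 11 lower (27.5%), close to that background (median log2 fold change 0.09). Those with the largest changes were Mcmdc2, an MCM-domain gene of meiotic recombination on chromosome 1, at 54, 55 and 39 counts against 320, 243 and 288 (2.59 ± 0.12), the exonuclease gene Exo1, also on chromosome 1 (0.72 ± 0.03), and Mcm9, an MCM relative that acts in recombination repair (0.50 ± 0.06). Of 22 replication checkpoint genes 16 were called higher (72.7%) and 2 lower (9.09%; median 0.13), led by Smarcal1, a fork remodeller on chromosome 1 (0.94 ± 0.04), Hus1, a subunit of the 9-1-1 checkpoint clamp on chromosome 11 (0.89 ± 0.03), and Fancd2, a crosslink repair gene on chromosome 6 (0.69 ± 0.03). Hus1 had neighbours at -0.02 and was at 73.2, 74.1 and 73.0 CPM in the control clones and 141, 132 and 136 CPM in the clones labelled knockout, with no overlap. The neighbours of Smarcal1 and Fancd2 had medians of 0.58 and 0.50, and those of Mcmdc2, Exo1 and Mcm9 had 0.47, 0.44 and 0.004.

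Of 24 genes of deoxynucleotide supply 10 were called higher (41.7%) and 6 lower (median 0.06), and the largest changes were those of Dtymk, the thymidylate kinase gene (0.47 ± 0.03, chromosome 1), Nme1, a nucleoside diphosphate kinase gene (-0.45 ± 0.03, chromosome 11), and Dctd, the dCMP deaminase gene (-0.30 ± 0.03, chromosome 8). Of 34 regulators of the G1/S transition 10 were called higher (29.4%) and 17 lower (median -0.07), against 44.5% and 33.9% of the well-counted genes, and the difference was not tested. The CDK inhibitor gene Cdkn1c fell by 1.94 on the log2 scale (SE 0.07), from 551, 554 and 524 counts to 129, 125 and 150. The cyclin D3 gene Ccnd3 rose by 1.01 ± 0.02, from 201, 209 and 206 CPM to 412, 424 and 411 CPM, and the CDK inhibitor gene Cdkn1a fell by 0.77 (SE 0.05). Of 28 G2/M genes 15 were called higher (53.6%) and 5 lower (17.9%; median 0.08), with Cenpf, a kinetochore gene on chromosome 1, at 1.02 ± 0.03, the phosphatase gene Cdc25c at 0.55 ± 0.05 and Cdc20, the activator of the anaphase-promoting complex, at -0.32 ± 0.02. The neighbours of Dtymk, Nme1 and Dctd had medians of 0.36, 0.06 and -0.33. Those of Cdkn1c, Ccnd3 and Cdkn1a had -0.07, 0.03 and -0.03, and those of Cenpf, Cdc25c and Cdc20 had 0.49, 0.08 and 0.03.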

How the data were processed

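Total RNA of mESCs was extracted with on-column DNase treatment, and stranded libraries were made from polyA RNA. The deposited values are raw fragment counts per gene, which the authors made by removing rRNA reads with Bowtie2 2.1.0, mapping to mm10 with TopHat 2.0.10 and counting with HTSeq 0.6.1 (union mode, strand-specific) on GENCODE M4, without fragments that fit several genes or places. Symbols and merged exon lengths came from GENCODE M21, which matched 42425 of 43309 genes.

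Counts were tested in R 4.3.3 with edgeR 4.0.16 (TMM factors, quasi-likelihood F test, no covariate), and DESeq2 1.42.0 was an alternative. Genes needed 10 counts in 1 library. The test was checked on simulated counts with few genes changed, as many up as down, and no shift of whole chromosomes. Its behaviour where most genes change, as here, was not tested. CPM use TMM library sizes. The F test gives no SE of its own, so each SE is the absolute log2 fold change divided by the square root of F. P-values set a change against the spread between the 3 libraries of a group. The dispersion of each gene was moderated across all genes (common dispersion 0.0004). Any difference shared by all libraries of a group counts as a difference between the groups, whatever its source. Whether so small a spread covers the variation between independently derived clones was not tested.

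All 45 genes are named. Of each other list the 3 called genes with the largest changes and a mean of at least 100 counts are named. The genes and lists were chosen with earlier results of these data known. Samples were grouped by the labels' genotype.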

Additional observations from a re-analysis of the deposited data

How the results depend on the processing

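Counting error and the spread between libraries of a group were small at this depth, so the size of a change limits what can be read more than its test does. The number of replication genes called was 36, 35 (31 higher, 4 lower) with DESeq2, and 34 to 36 without 1 library each, with 3 to 5 called lower. Over all genes it was 11697, 10326 with DESeq2 and 11059 to 11304 without 1 library. Requiring over 1.2-fold left 9 replication genes (9 higher, 0 lower), 6837 of all genes (3041 higher, 3796 lower), 5 other replication genes, 2 of deoxynucleotide supply, 14 G1/S regulators, 8 checkpoint genes and 4 G2/M genes. The median log2 fold change of the 45 genes was 0.16 with TMM factors from genes off chromosomes 1, 6 and 8, 0.17 after subtracting the chromosome median and 0.18 after subtracting the neighbours' median. That subtraction turned the direction of the called genes Mcm10 (-0.015), Gins4 (0.34), Pold1 (0.040) and Fen1 (0.043) and of the uncalled Orc5 (0.023), Pcna (0.014), Cdt1 (0.11) and Gins2 (0.074). Cdt1 and Gins2 also turned to 0.0091 and 0.0074 with those TMM factors. Without 1 library each, Cdt1 ranged from -0.026 to 0.012 and Gins2 from -0.044 to 0.034. Cdc6 became a call (higher) with no filter, with those TMM factors and without knockout replicate 1 or 2, and Orc5 (lower) without control replicate 2, while Fen1 lost its call with no filter and with those TMM factors. The sum of the 45 genes was 0.761% and 0.903% of the TMM library size, and the MCM ratio with the longest transcript was 2.56 and 2.17. Libraries of the same replicate number showed little correlation of deviations (0.006, 0.072 and 0.015, against -0.072 to 0.054 for unlike numbers). With 3 libraries per group these values depend on one another, so they cannot settle whether the numbers pair the clones. With the replicate block 37 replication genes (Cdc6 added) and 11801 genes in all were called.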
